A study of Cavia porcellus with 10 samples.

Results

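The cervix was compared between 3 mid-pregnant guinea pigs (MT) and 3 non-pregnant guinea pigs (NP). These are 6 of the 10 animals sequenced, and every one of the 25028 genes in the deposited table was considered. All animals were Hartley guinea pigs. The NP females were taken on the day after the membrane that closes the vagina had gone, which marks entry into estrus. The MT females were at 43.6 ± 0.5 days of gestation (SD), a stage that was estimated from the size of the fetuses. The 4 late-term females (LT) enter below only through the shared estimate of the spread between animals and through the choice of genes tested, since a gene that reached the minimum level in LT alone was tested too. The labels name no treatment for any group, and the estrous state of the NP animals and the absence of pregnancy cannot be told apart. Sampling was aimed at the vaginal part of the cervix, to limit the amount of uterine muscle in the samples.

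The cervix keeps the uterus closed during pregnancy and is remodelled from a firm into a compliant tissue before birth. Its canal is lined by columnar and glandular cells that secrete mucus, and its vaginal surface by a stratified squamous epithelium that cornifies under estrogen in rodents. Below the epithelium lie fibroblasts, collagen and proteoglycans, smooth muscle, vessels and resident leukocytes. In RNA from whole tissue, fewer cells of a type and less RNA per cell cannot be told apart.

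Between 18730665 and 27351763 reads per animal were counted on genes in the 6 libraries. The first principal component of the 6 animals held 63.7% of the variance and separated NP from MT. NP replicate 1 stood apart from the other NP animals, with correlations of 0.946 and 0.930 to them, where NP replicates 2 and 3 correlated at 0.984 with each other (Pearson, log2 CPM across genes). It had higher summed TPM than the other NP animals for the genes of squamous epithelium, the interferon response, cholesterol synthesis and smooth muscle, and lower summed TPM for leukocyte genes. Counts for most of these lists are therefore also given without it. TPM is a level scaled by transcript length and by the total of each animal and can be compared between genes.

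Of 12645 genes that reached a stage mean of 3 TPM in any stage, 2280 were called between NP and MT at an adjusted P under 0.05 (edgeR quasi-likelihood test, Benjamini-Hochberg adjustment), which is 18.0%. In MT 1271 of them were higher (10.1% of the genes tested) and 1009 lower (7.98%). Counts of list members called below are to be read against these shares. The change exceeded 8-fold for 87 higher and 81 lower genes. The genes called higher held 10.7 ± 0.747% of all TPM in NP and 18.1 ± 0.996% in MT (SD, n = 3), and the genes called lower held 5.36 ± 0.764% and 2.39 ± 0.130%. The median log2 fold change of all genes tested was -0.03. On the scale of log2(TPM + 1) this median was -0.14, and 33.9% of the calls by limma on that scale were upward, against 55.8% of the calls on counts. Without MT replicate 3, 1068 genes were called, without NP replicate 2 it was 1515, and in a fit of the 6 animals alone 1139. All MT animals lay above all NP animals for 11.4% of the genes tested and below them for 23.5%.

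By the operational threshold of 3 TPM, 263 genes were turned on from NP to MT and 626 were turned off. Of these 137 were also called higher and 259 called lower, and 95 and 157 had every animal on its side of the threshold. The threshold is set in TPM, a scale on which the median gene shifted down (-0.14). On counts more genes were called higher than lower. The 10 named genes with the largest rise in TPM held 0.988 ± 0.112% of all TPM in NP and 2.90 ± 0.458% in MT (SD, n = 3). Beside SCGB3A1, S100A9, AGR2, CLDN1 and KCNE3 they included CYB5A, which encodes cytochrome b5, and ENPP2, which makes the lipid mediator lysophosphatidic acid. CYB5A rose from 486, 521 and 389 TPM to 1958, 1771 and 1801 TPM (log2 fold change 2.10, SE 0.13, adjusted P = 5.56e-05). ENPP2 was at 225, 241 and 332 TPM in NP and at 1549, 620 and 869 TPM in MT (log2 fold change 2.06, adjusted P = 0.00596). The stages did not overlap for either gene. CPVL, a carboxypeptidase, went from 216, 71.6 and 33.4 TPM to 963, 780 and 713 TPM (log2 fold change 2.98, adjusted P = 0.0108). ND5 and RPS15A, of the respiratory chain and the ribosome, started from higher levels and rose by 0.80 and 0.64. Of the largest falls in TPM, that of the lysosomal protease CTSL2 held with each animal left out, from 629, 385 and 461 TPM to 147, 171 and 147 TPM (log2 fold change -1.57, adjusted P = 0.0029). SEPP1, a selenium carrier, ECM1, a secreted matrix protein, and NAC1 had -0.83, -2.08 and -0.78, and each lost its call with several single animals left out, MT replicate 3 among them. The bars for 40 gene lists with at least 10 tested members show where the calls lay. Lists of secretory epithelium stood at one end and lists of cornification, interferon response and mitosis at the other.

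**Figure D1:**
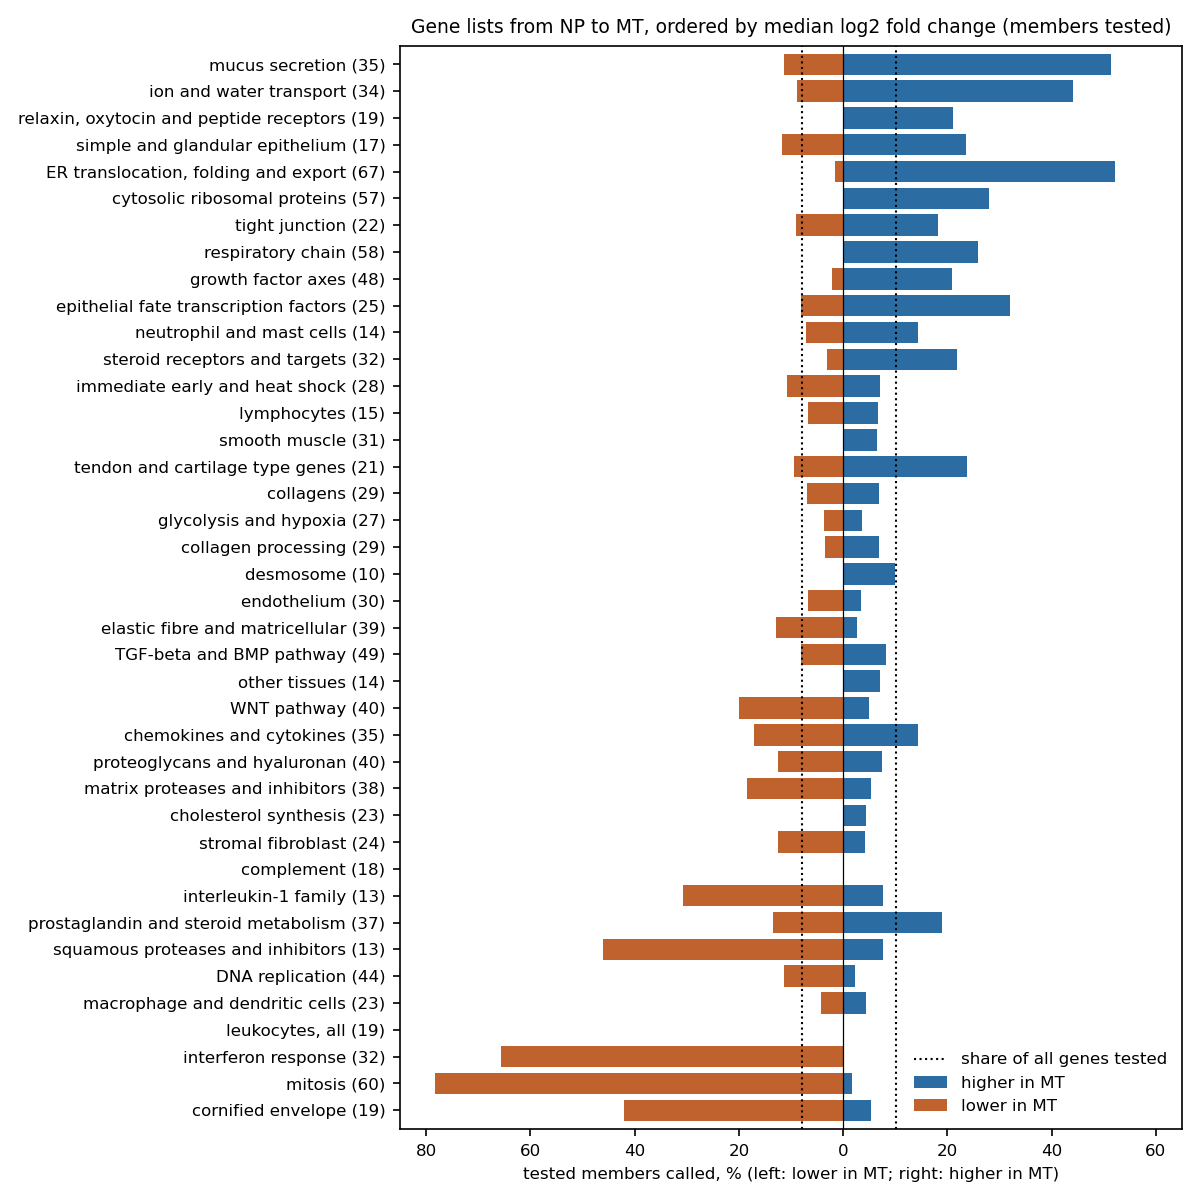
Share of the tested members of each gene list that were called higher (right, blue) or lower (left, orange) in MT, in percent, with the lists ordered by their median log2 fold change and the number of members tested in parentheses. Dotted lines mark the shares over all genes tested, 10.1% higher and 7.98% lower, and mitosis, interferon response, mucus secretion and ER genes reach furthest beyond them.

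Many genes of mucus secretion rose. Of 35 tested members of this list 18 were called higher and 4 lower, against 10.1% and 7.98% of all genes tested. The list median was 1.42 on the log2 scale against -0.03 over all genes. The list summed to 1062, 1203 and 1041 TPM in the NP animals and to 7665, 3329 and 5730 TPM in the MT animals. Without NP replicate 1 the numbers were 19 and 3, and with any 1 of the 6 animals left out between 14 and 19 members were higher. MUC5B (ENSCPOG00000027066), a gel-forming mucin, was at 9.86, 102 and 115 TPM in NP and at 861, 391 and 936 TPM in MT. Its log2 fold change was 3.45 (SE 0.72, adjusted P = 0.0117). The 3 MT animals all lay above the NP animals, and the lowest value by far was that of NP replicate 1.

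Among called genes with a name and at least 10 TPM in the higher stage, the largest rise in both fold change and TPM was that of SCGB3A1 (ENSCPOG00000026128), a small secreted protein known from airway secretory cells. It was at 6.81, 17.3 and 8.96 TPM in NP and at 7333, 3116 and 5358 TPM in MT. The log2 fold change was 9.06 (SE 0.54, adjusted P = 3.48e-05), and MT replicate 2 was the lowest of the MT animals. AGR2 (ENSCPOG00000000018), the disulfide isomerase of the endoplasmic reticulum that mucin assembly needs, went from 104, 219 and 139 TPM to 2904, 1250 and 2612 TPM. Its log2 fold change was 4.02 (SE 0.36, adjusted P = 0.000335). For both genes the same MT animal was lowest and no NP animal came near the MT range. Mucus components with the same direction were FCGBP at 4.26 on the log2 scale (adjusted P = 0.00226), KLK1 at 6.98 and BPIFB1 at 4.25, the last with 636 TPM in MT replicate 1 and 43.7 and 36.7 TPM in the other MT animals. The BPIFB1 call was lost when any NP animal was left out. CLCA1, a secreted protein of goblet cells, went from 0.300, 2.91 and 1.55 TPM to 297, 85.4 and 230 TPM (log2 fold change 7.20, SE 0.83, adjusted P = 0.000889). Outside this list NXPE2 rose from 0.0258, 0.106 and 0.0627 TPM to 19.9, 16.6 and 17.4 TPM (log2 fold change 8.23, SE 0.30, adjusted P = 2.98e-06).

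Of 25 tested transcription factors of epithelial fate 8 were called higher and 2 lower, with a list median of 0.20 on the log2 scale, and with 1 animal left out between 4 and 7 were higher. SPDEF (ENSCPOG00000020697), required for goblet cells in airway and gut, was at 0.0871, 2.50 and 0.635 TPM in NP and at 85.5, 60.8 and 84.2 TPM in MT. Its log2 fold change was 6.40 (SE 0.59, adjusted P = 0.000377). Every MT animal thus lay far above the NP animals, of which replicate 1 was near 0. CREB3L1, a membrane-bound factor of secretory cells, rose from 36.9, 67.8 and 63.5 TPM to 200, 190 and 224 TPM (log2 fold change 2.01, SE 0.19, adjusted P = 0.000377). BARX2, a homeobox factor, rose by 1.99 on the log2 scale (adjusted P = 0.000275) and XBP1, the factor of the unfolded protein response in secretory cells, by 1.23 (adjusted P = 0.00638). ERN2, the mucosal form of the stress sensor that splices XBP1, was at 0.125, 0.470 and 0.171 TPM in NP and at 75.0, 23.4 and 26.8 TPM in MT, and its widely expressed relative ERN1 rose by a log2 fold change of 1.25 (SE 0.14). FOXA2 was called higher at a log2 fold change of 2.97 and lost this call without NP replicate 3 or any MT animal. FOXA1 was called lower at -4.24, with 9.40, 2.68 and 0.610 TPM in NP, and lost the call without NP replicate 1, MT replicate 2 or MT replicate 3. TP63, the factor of basal squamous cells, was at 0.01 on the log2 scale (adjusted P = 0.99).

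Enzymes that build mucin glycans changed in both directions. B3GNT7 and CHST4, which extend and sulfate glycan chains, had log2 fold changes of 2.88 and 3.05, and GALNT6 and GALNT12, which start mucin-type O-glycans, had 1.83 and 1.96. GCNT3, which branches them, went the other way. It was at 195, 57.5 and 49.2 TPM in NP and at 10.9, 8.86 and 18.8 TPM in MT, a log2 fold change of -2.91 (SE 0.61, adjusted P = 0.0118). MUC4, a mucin anchored in the membrane, fell by 1.67 on the log2 scale and lost its call without MT replicate 2, and MUC1, another one, was at 0.36 (adjusted P = 0.38).

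**Figure D2:**
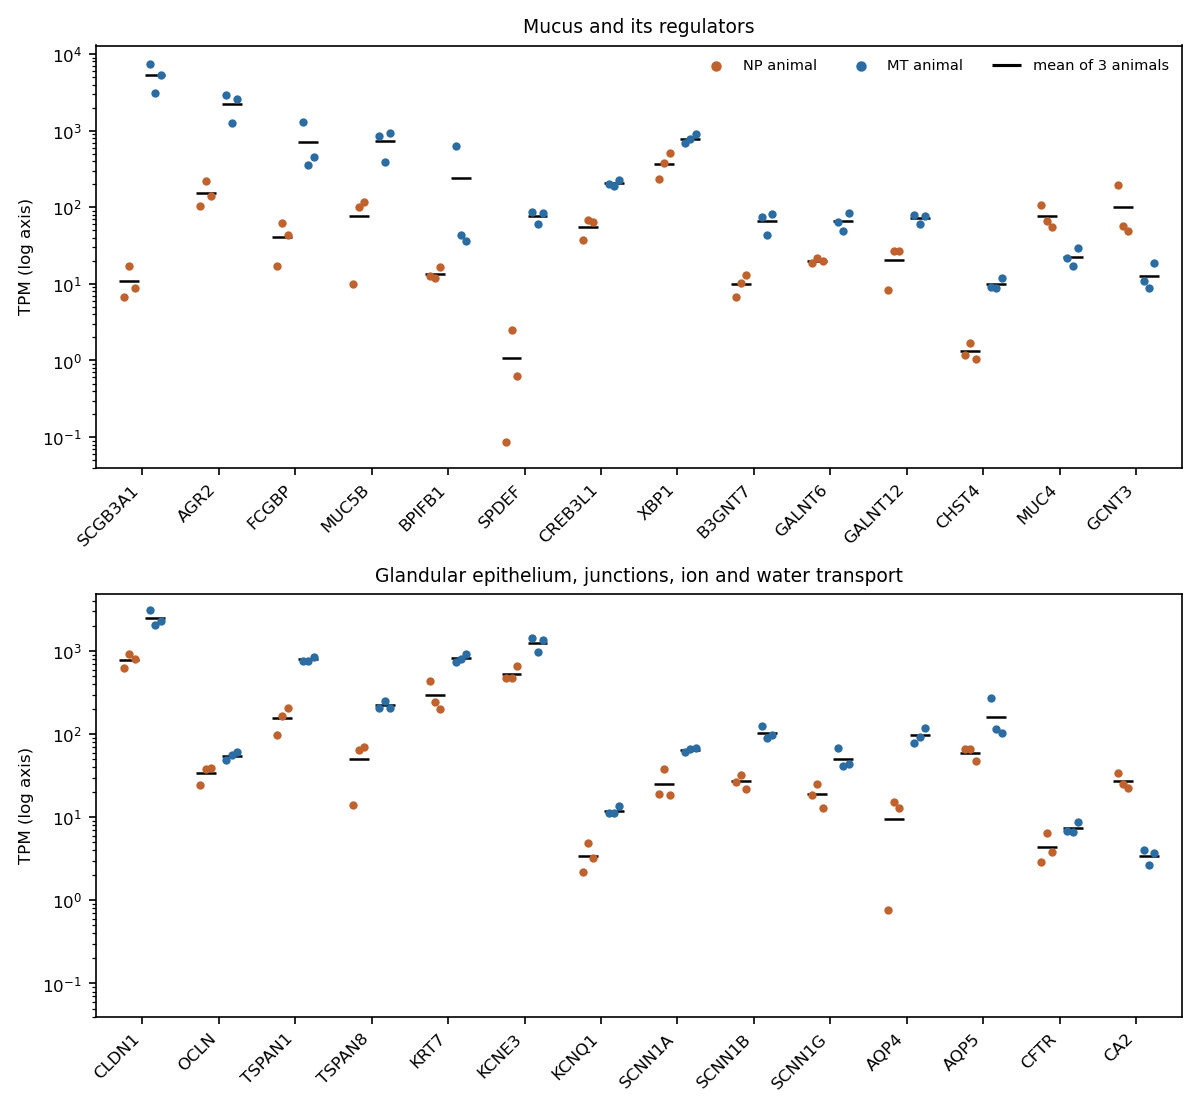
TPM of single genes (log axis) in each NP animal (orange) and MT animal (blue), with a bar for the mean of 3 animals, for mucus genes and their regulators (top) and for genes of glandular epithelium, junctions and transport (bottom). SCGB3A1 reaches 3116 to 7333 TPM in MT, and MUC4, GCNT3 and CA2 are the genes shown that lie lower in MT.

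The machinery of protein secretion rose by small amounts in many genes. Of 67 tested genes for translocation into the endoplasmic reticulum, folding and export, 35 were called higher and 1 lower, and 61 had a fitted log2 fold change above 0. Their median log2 fold change was 0.47, well under that of the mucus list. SEC23B, a coat protein of export vesicles, went from 35.6, 53.9 and 47.2 TPM to 94.5, 78.8 and 122 TPM (log2 fold change 1.25, SE 0.16, adjusted P = 0.0015). SEC11C, a signal peptidase subunit, rose by 1.09, SEC24D by 1.00 and the cargo receptor subunit MCFD2 by 0.88. The chaperones HSPA5 and HSP90B1 did not pass, at 0.34 (adjusted P = 0.36) and 0.27 (adjusted P = 0.34), nor did DDIT3, a marker of unresolved stress in this compartment, at -0.10 (adjusted P = 0.66). With single animals left out, 20 members were called higher without MT replicate 3, 51 without NP replicate 1, and 18 in the fit of the 6 animals alone. Ribosomal protein genes and genes of the respiratory chain had 16 of 57 and 15 of 58 members called higher and none lower. Their medians were 0.26 and 0.24, and on the log2(TPM + 1) scale, where limma called 2 and 3 of them higher, 0.14 and 0.12. Without MT replicate 3 the 2 lists had 3 and 5 members called higher and without NP replicate 2 they had 4 and 6.

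Some genes of tight junctions and some markers of simple and glandular epithelium were called higher. CLDN1 (ENSCPOG00000010741), a claudin of tight junctions, was among the most abundant genes that rose, from 633, 922 and 804 TPM to 3166, 2053 and 2334 TPM. Its log2 fold change was 1.81 (SE 0.17, adjusted P = 0.000406). OCLN and MARVELD2, which are also parts of tight junctions, rose by 0.84 each. In all, 4 of 22 tested tight junction genes (18.2%) were higher, with 2 lower (PARD3 and JAM3), against 10.1% and 7.98% of all genes. CLDN3, CLDN4 and CLDN7 did not pass with all animals, at 1.84, -0.69 and 0.31 on the log2 scale. CLDN3 was called higher without NP replicate 1, at 1.28 (adjusted P = 0.0221). For CLDN4 every MT animal lay below every NP animal. Of 17 tested markers of simple and glandular epithelium 4 were called higher and 2 lower, or 8 and 2 without NP replicate 1, and their summed TPM went from 2803, 3783 and 4650 in NP to 8639, 9160 and 9519 in MT. The largest part of the MT sum was that of WFDC2, a secreted protease inhibitor, at 184, 1697 and 2425 TPM in NP and 5043, 5574 and 5460 TPM in MT, which did not pass with all animals (log2 fold change 2.08, adjusted P = 0.055) and did so without NP replicate 1, at 1.57 (adjusted P = 0.00453). TSPAN1, a tetraspanin of secretory epithelia, rose from 98.8, 166 and 205 TPM to 767, 766 and 852 TPM (log2 fold change 2.49, SE 0.20, adjusted P = 0.00021). KRT7, a keratin of glandular cells, rose by 1.57 and TSPAN8 by 2.33. EPCAM, which marks epithelial cells in general, rose by 0.47 (SE 0.08, adjusted P = 0.00362), which is a smaller fold change than those of the secretory genes. SLPI, a secreted inhibitor of leukocyte elastase, was the member that fell most, from 458, 140 and 302 TPM to 31.1, 25.8 and 8.80 TPM (log2 fold change -3.71, SE 0.66, adjusted P = 0.00575). Markers of ciliated cells were sparse, and 6 of 19 in the table passed the filter. Of these only CAPS was called, higher at 1.86 (adjusted P = 0.0276), and its call was lost without MT replicate 2 or MT replicate 3. The others ran from -2.19 for TEKT1 to 0.72 for CCDC78 and did not pass.

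Genes of ion and water transport rose in part. Of 34 tested genes 15 were called higher and 3 lower, and the list median was 0.69 on the log2 scale. The member with the largest change was SLC13A2, a carrier of citrate and other dicarboxylates, which went from 0.0245, 0.768 and 0.387 TPM to 78.4, 95.9 and 89.0 TPM (log2 fold change 8.03, SE 1.36, adjusted P = 0.00481). The amino acid carrier SLC36A2 rose by 4.98 (adjusted P = 0.00103). All 3 subunits of the epithelial sodium channel, which takes up sodium from the lumen, rose together. SCNN1A rose by 1.503 on the log2 scale, SCNN1B by 2.06 and SCNN1G by 1.55, with adjusted P-values of 0.00279, 0.000495 and 0.00941. SCNN1B, the largest of the 3 changes, went from 26.9, 32.5 and 22.1 TPM to 125, 89.3 and 98.5 TPM. The potassium channel subunits KCNE3 and KCNQ1, which can assemble with each other, rose by 1.35 and 1.95. The water channel AQP4 was at 0.759, 15.3 and 12.9 TPM in NP and at 79.0, 91.9 and 120 TPM in MT (log2 fold change 3.53, SE 0.71, adjusted P = 0.00974). AQP5 and the chloride channel CFTR had calls at 1.54 and 0.91, and AQP5 lost it with any 1 of the 6 animals left out, CFTR without NP replicate 1, NP replicate 3 or MT replicate 3. Carbonic anhydrase CA2 went the other way, from 34.0, 25.4 and 22.8 TPM to 3.99, 2.63 and 3.71 TPM (log2 fold change -2.89, SE 0.48, adjusted P = 0.00451). Without NP replicate 3 or MT replicate 3, 10 members of the list were called higher.

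Part of the genes of terminal squamous differentiation fell. Of 19 tested genes of the cornified envelope, the protein shell of the outermost squamous cells, 8 were called lower (42.1%, against 7.98% of all genes) and 1 higher, and 17 had a fitted fold change below 0. The list summed to 5246, 1311 and 489 TPM in NP and to 738, 220 and 249 TPM in MT. The median log2 fold change was -2.30 with all animals and -1.12 without NP replicate 1, where 7 members were lower. Without MT replicate 3 only 2 members were called lower and without MT replicate 2 it was 4. SBSN (ENSCPOG00000000744), a secreted protein of upper keratinocytes, was at 172, 40.3 and 8.29 TPM in NP and at 0.600, 0.0990 and 0.437 TPM in MT. Its log2 fold change was -7.53 (SE 1.29, adjusted P = 0.00501). The NP animals differed widely among themselves, and the lowest of them was still above the highest MT animal.

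Involucrin (IVL) and transglutaminase 1 (TGM1), the scaffold of the envelope and the enzyme that cross-links it, had log2 fold changes of -4.36 and -4.50 and lost their calls without MT replicate 3. For SPRR3, a small proline-rich envelope protein, 369 reads were counted in NP and 1 read in MT, and its call was lost without any 1 of the MT animals. Proteases and inhibitors of the squamous layer showed 6 of 13 tested genes lower and 1 higher, or 5 and 2 without NP replicate 1 and 3 and 1 without MT replicate 3. TMPRSS11D (ENSCPOG00000010047), a membrane serine protease, was at 293, 68.98 and 28.9 TPM in NP and at 1.32, 0.0483 and 0.0355 TPM in MT (log2 fold change -8.20, SE 1.38, adjusted P = 0.00462). KLK8 and SPINK5, a kallikrein and an inhibitor of such proteases, fell by 6.28 and 6.43. TMPRSS11B, a relative of TMPRSS11D, had -6.64 and lost its call without MT replicate 3. The exception was SERPINB2, a protease inhibitor, which rose from 21.6, 13.7 and 13.9 TPM to 138, 50.8 and 150 TPM (log2 fold change 2.87, adjusted P = 0.00837).

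By the same rule the largest fall in fold change was that of RHCG (ENSCPOG00000009033), an ammonium transporter of epithelia. It was at 182, 38.6 and 15.9 TPM in NP and at 0.306, 0 and 0.0319 TPM in MT, a log2 fold change of -9.48 (SE 1.33, adjusted P = 0.00219). As for most squamous genes, NP replicate 1 was highest and NP replicate 3 lowest. The same order held for MCPT3, a serine protease, at 62.3, 14.03 and 3.73 TPM in NP and at 0, 0 and 0.114 TPM in MT, and for the keratinocyte protein DMKN, at 24.98, 6.44 and 1.19 TPM in NP and at 0.197, 0.0778 and 0 TPM in MT. KRTDAP, the member of the envelope list with the highest mean TPM, was at -3.47 and did not pass (adjusted P = 0.15). Genes of the layers beneath varied widely between animals. KRT14, a keratin of basal cells, was at 2825, 919 and 970 TPM in NP and at 1142, 133 and 369 TPM in MT, and its log2 fold change of -1.46 did not pass (adjusted P = 0.201). It was -0.59 (adjusted P = 0.571) without NP replicate 1 and was called lower at -2.57 (adjusted P = 0.0428) without MT replicate 1, the highest MT animal. Of 10 desmosome genes, which join squamous cells to each other, none was called lower, 1 (PKP2) was higher, and DSP, DSG1 and DSG3 had log2 fold changes of -0.21, -0.17 and -0.94. With 1 animal left out these values ran from -0.90 to 0.37 for DSP, from -2.14 to 0.79 for DSG1 and from -2.57 to 0.69 for DSG3, with the upper end without NP replicate 1, so that their direction was not settled. DSG1 was at 94.6, 33.02 and 24.1 TPM in NP and at 108, 10.8 and 11.1 TPM in MT. Only 4 of 22 keratins of stratified epithelium had a row in the table under these names, and KRT78 was the member called lower.

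**Figure D3:**
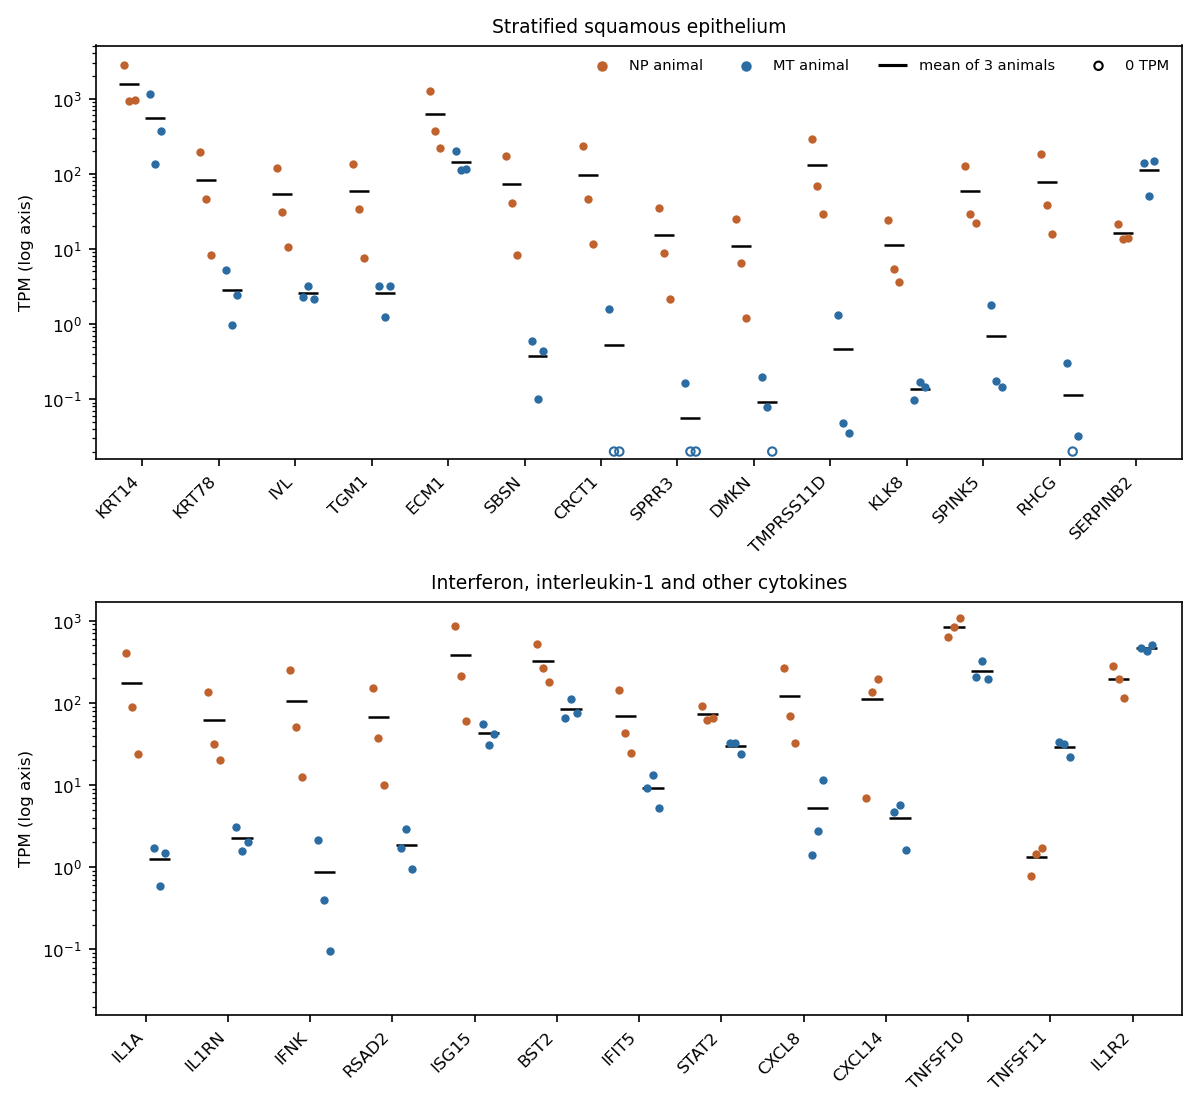
TPM of single genes (log axis) in each NP animal (orange) and MT animal (blue), with a bar for the mean of 3 animals and open circles at the bottom for 0 TPM, for squamous genes (top) and for cytokines and interferon genes (bottom). SERPINB2, TNFSF11 and IL1R2 are the genes shown that lie higher in MT, and the NP animals spread over more than 10-fold for SBSN, CRCT1 and RSAD2.

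Interferon-induced genes fell in the same direction, and NP replicate 1 was again the highest animal. Of 32 tested members 21 were called lower (against 7.98% of all genes tested) and none higher, and all 32 had a fitted fold change below 0. In 28 of them every MT animal lay below every NP animal, against 23.5% of all genes tested. The list summed to 3756, 1750 and 1342 TPM in NP and to 814, 950 and 798 TPM in MT. The median log2 fold change was -1.13, and -0.78 without NP replicate 1, where 19 members were lower. Fewer members were called lower with 1 MT animal left out, 9 without MT replicate 1, 11 without MT replicate 2 and 2 without MT replicate 3. In the fit of the 6 animals alone 5 members were called lower.

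RSAD2 (ENSCPOG00000008107), an antiviral enzyme, was at 152, 37.7 and 10.04 TPM in NP and at 1.70, 2.92 and 0.950 TPM in MT (log2 fold change -5.16, SE 0.98, adjusted P = 0.00759). STAT2, a signal transducer of type I interferon, fell from 91.2, 61.1 and 65.1 TPM to 32.6, 32.1 and 23.8 TPM (log2 fold change -1.20, SE 0.22, adjusted P = 0.00687). BST2, which tethers viruses to the cell, had -1.86 and lost its call without MT replicate 3. ISG15, a ubiquitin-like protein, had -3.14 and lost its call without NP replicate 1 or any MT animal. IRF9 was at -0.25 (adjusted P = 0.12). The interferon in the list was IFNK, the form made by keratinocytes, with 251, 50.1 and 12.5 TPM in NP and 2.13, 0.395 and 0.0969 TPM in MT, and its call was lost without MT replicate 3.

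Cytokines and their receptors changed in both directions. In the interleukin-1 family IL1A and its antagonist IL1RN fell together. IL1RN (ENSCPOG00000008700) was at 134, 31.7 and 20.1 TPM in NP and at 3.10, 1.59 and 2.01 TPM in MT (log2 fold change -4.76, SE 0.85, adjusted P = 0.00601). The decoy receptor IL1R2 had a log2 fold change of 1.32, with 281, 194 and 115 TPM in NP and 466, 430 and 498.5 TPM in MT, and lost its call without NP replicate 2 or any MT animal. The signalling receptor IL1R1 had 0.10 (adjusted P = 0.78). Among 35 tested chemokines, other cytokines and their receptors 5 were higher and 6 lower, against 10.1% and 7.98% of all genes tested. TNFSF10, a death ligand also called TRAIL, fell from 625, 840 and 1071 TPM to 207, 320 and 197 TPM (log2 fold change -1.67, SE 0.23, adjusted P = 0.00202). TNFSF11, the ligand of RANK and a mediator of progesterone action in the mammary gland, rose from 0.780, 1.44 and 1.73 TPM to 33.1, 31.9 and 22.0 TPM, while its receptor TNFRSF11A was at -0.09 (adjusted P = 0.76). The neutrophil chemokine CXCL8 had -4.44 and lost its call without MT replicate 2, and PPBP, another one, had -2.46 and lost it without MT replicate 3. IL6R rose by 1.22 (SE 0.20, adjusted P = 0.0045) and IL13RA1 fell by 0.88 (SE 0.12, adjusted P = 0.00202). DEFB1, an antimicrobial peptide of epithelia, fell from 536, 433 and 433 TPM to 253, 214 and 190 TPM (log2 fold change -0.99, adjusted P = 0.00501).

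Most of the tested genes of mitosis fell. Of 60 tested genes of mitosis 47 were called lower and 1 higher (against 7.98% and 10.1% of all genes tested), with a median log2 fold change of -1.70. In 55 of them every MT animal lay below every NP animal, against 23.5% of all genes tested. The list summed to 771, 929 and 669 TPM in NP and to 429, 278 and 359 TPM in MT, with MT replicate 2 the lowest animal. Without NP replicate 1, 42 members were lower. Fewer were called without MT replicate 3 (18), without NP replicate 2 (23), and in the fit of the 6 animals alone (15), while the median stayed between -2.13 and -1.36 with any 1 animal left out. SPC25, a kinetochore protein, was at 12.2, 20.8 and 11.98 TPM in NP and at 3.87, 1.07 and 1.84 TPM in MT (log2 fold change -2.60, SE 0.41, adjusted P = 0.00345). CDK1, the kinase that starts mitosis, fell from 15.97, 17.7 and 12.3 TPM to 4.93, 1.29 and 3.14 TPM (log2 fold change -2.18, SE 0.37, adjusted P = 0.00469). TOP2A and MKI67, common markers of cycling cells, had -2.07 and -2.06 and lost their calls without MT replicate 3, MKI67 also without NP replicate 2. The member called higher was CDC25B, a phosphatase that activates CDK1, at 0.54, and it lost the call without NP replicate 1, NP replicate 3, MT replicate 1 or MT replicate 3.

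Fewer genes of DNA replication than of mitosis were called, a difference that was not tested. Of 44 tested members 5 were called lower and 1 higher, against 7.98% and 10.1% of all genes tested, with a median log2 fold change of -0.41. TK1, which supplies thymidine for replication, fell from 14.8, 24.5 and 18.8 TPM to 7.39, 3.79 and 7.73 TPM (log2 fold change -1.47, SE 0.31, adjusted P = 0.0128). PCNA and MCM6 had -0.12 and 0.03 and did not pass. The member that rose was GMNN (ENSCPOG00000007993), which encodes geminin, an inhibitor of replication licensing. It was at 5.99, 22.8 and 15.7 TPM in NP and at 83.5, 92.0 and 142 TPM in MT, a log2 fold change of 3.01 (SE 0.52, adjusted P = 0.00524). Its rise stood apart from the rest of the list, in which the next highest fitted value was that of CCNE2 at 0.88 (adjusted P = 0.14).

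**Figure D4:**
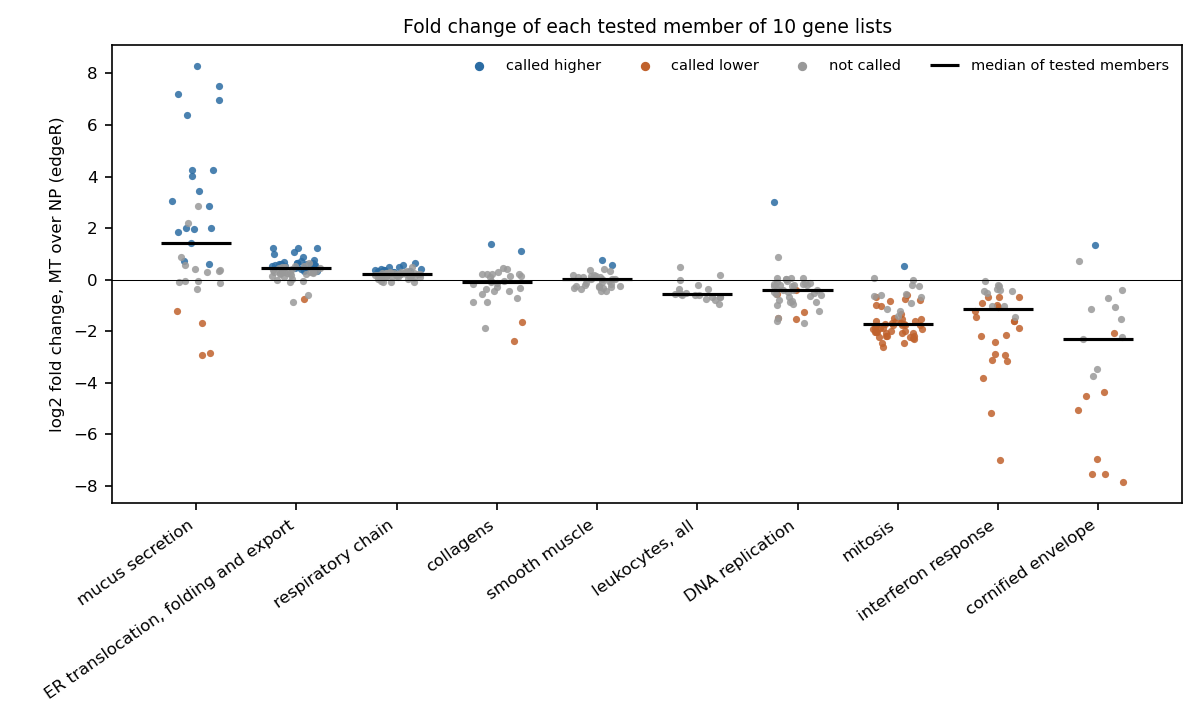
Log2 fold change from NP to MT (edgeR) of every tested member of 10 gene lists, blue where called higher, orange where called lower and grey where not called, with a line at the median of the list. The medians run from 1.42 for mucus secretion to -2.30 for the cornified envelope, and the blue point alone at the top of DNA replication is GMNN at 3.01.

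The share of collagens called was not far from that over all genes. Of 29 tested collagens 2 were called higher and 2 lower (6.90% each, against 10.1% and 7.98%), and the list median was -0.09 on the log2 scale, and each of these 4 calls was lost without MT replicate 3. COL1A1 and COL1A2, the chains of type I collagen, had -0.12 (adjusted P = 0.84) and 0.11 (adjusted P = 0.87). Among 29 genes of collagen processing 2 were higher and 1 lower. LOX, which cross-links collagen and elastin, was at -0.52 (adjusted P = 0.31), and LOXL2 at -0.88, with its call lost without MT replicate 3. Elastin (ELN) and fibronectin (FN1) had -0.51 (adjusted P = 0.29) and -0.55 (adjusted P = 0.25).

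Single matrix genes changed by large amounts. POSTN (ENSCPOG00000001209), the matricellular protein periostin, was at 4.56, 9.76 and 19.8 TPM in NP and at 0.202, 0.375 and 0.0921 TPM in MT, a log2 fold change of -5.54 (SE 0.64, adjusted P = 0.000889). EFEMP1, a fibulin of the elastic fibre system, rose from 75.8, 62.1 and 49.3 TPM to 241, 179 and 214 TPM (log2 fold change 1.86, SE 0.22, adjusted P = 0.00106). It was the 1 member called higher among 39 tested genes of elastic fibres and matricellular proteins, of which 5 were lower. In the proteoglycan list 3 of 40 tested genes were higher and 5 lower, against 10.1% and 7.98% of all genes tested. The heparan sulfate proteoglycan GPC6 (ENSCPOG00000001693) rose from 0.168, 0.574 and 1.43 TPM to 16.7, 11.6 and 14.5 TPM (log2 fold change 4.45, SE 0.48, adjusted P = 0.000679). Fibromodulin (FMOD), a small proteoglycan that binds collagen fibrils, was more abundant, at 377, 271 and 261 TPM in NP and 742, 677 and 606 TPM in MT (log2 fold change 1.25, SE 0.24, adjusted P = 0.00739). Decorin-like family members ASPN and PODN had -1.11 and -1.01, the latter without a call when MT replicate 3 was left out. Versican (VCAN), a large proteoglycan that binds hyaluronan, had -1.32 and lost its call without any 1 of the MT animals. HAS3, which makes hyaluronan, fell by 1.70 (SE 0.28, adjusted P = 0.0044), and HAS2 was at -0.67 (adjusted P = 0.25).

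Of 38 tested matrix proteases and inhibitors 7 were called lower and 2 higher (18.4% and 5.26%, against 7.98% and 10.1% of all genes). With 1 animal left out between 4 (without MT replicate 3) and 8 were lower. MMP11, a stromal metalloprotease, fell from 75.0, 72.5 and 180 TPM to 4.31, 20.7 and 9.45 TPM (log2 fold change -3.11, SE 0.54, adjusted P = 0.00535). MMP17, ADAMTS7 and the plasminogen activator PLAU had -1.55, -1.36 and -0.82. ADAMTS15, a protease of hyaluronan-binding proteoglycans, rose from 9.91, 16.3 and 14.3 TPM to 68.5, 39.9 and 53.1 TPM (log2 fold change 2.13, SE 0.26, adjusted P = 0.00111). The gelatinases MMP2 and MMP9 were at -0.18 (adjusted P = 0.71) and 0.71 (adjusted P = 0.33), and TIMP1 at 0.03 (adjusted P = 0.94). Of 21 tested genes known from tendon and cartilage 5 were higher and 2 lower. LECT1 (ENSCPOG00000006519), the cartilage protein chondromodulin, was at 0.432, 0.236 and 0.157 TPM in NP and at 12.3, 17.8 and 8.76 TPM in MT (log2 fold change 5.59, SE 0.78, adjusted P = 0.00213). RUNX1 and RUNX2, factors of blood and bone, rose by 1.25 and 0.76, while EGR1, an immediate early factor, fell by 1.52 (SE 0.27, adjusted P = 0.00592). Among 28 immediate early and heat shock genes 2 were higher and 3 lower, with the AP-1 member FOSL2 at 0.99 and EGR3 at -1.87.

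Genes that mark stromal cells, muscle and vessels were called in shares near those over all genes or below them. For fibroblasts 1 of 24 was higher and 3 lower (4.17% and 12.5%), and for endothelium 1 of 30 was higher and 2 lower, with medians of -0.31 and -0.17. Smooth muscle genes summed to 49110, 20600 and 17550 TPM in NP and to 22930, 33530 and 27230 TPM in MT, so that the NP animals spanned the MT range. Their median log2 fold change was 0.02 with 2 of 31 called higher, and 0.53 with 5 called higher without NP replicate 1. MYH11 and ACTA2, which define smooth muscle, had 0.19 (adjusted P = 0.73) and 0.14 (adjusted P = 0.87). HOXA13, a patterning factor of the lower genital tract, was at 78.5, 92.6 and 83.0 TPM in NP and at 44.5, 61.5 and 53.3 TPM in MT, and its call at -0.55 was lost without NP replicate 2 or MT replicate 3.

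None of the 19 tested genes shared by all leukocytes was called by edgeR with all animals, and 17 of them had a fitted fold change below 0, with a median log2 fold change of -0.57. PTPRC, which encodes CD45, was at 8.72, 23.4 and 14.0 TPM in NP and at 8.68, 10.3 and 9.88 TPM in MT. NP replicate 1 was the lowest NP animal for this list, and without it 3 members were called lower and the median was -0.76. DESeq2 called 1 member lower with all animals. Macrophage and dendritic cell genes had 1 of 23 called in each direction, and 6 lower without NP replicate 1. T-cell markers were low, with CD3E between 1.26 and 9.42 TPM and a change of 0.03 on the log2 scale (adjusted P = 0.98). In the lymphocyte list 1 of 15 tested genes was called in each direction, GATA3 at 1.07 and BLNK at -1.02. GATA3 is also a factor of epithelial cells.

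The summed TPM of the neutrophil and mast cell list went from 4894, 6990 and 9718 to 17200, 12160 and 14880, and most of it came from S100A9, S100A8 and LTF, which epithelial cells also make. Which cells held this RNA was not tested. S100A9, a subunit of the antimicrobial protein calprotectin, rose from 2236, 3318 and 4514 TPM to 7790, 6898 and 8110 TPM (log2 fold change 1.32, SE 0.20, adjusted P = 0.00282). Its partner S100A8 had 0.48 (adjusted P = 0.35). MPO and ELANE, which define neutrophils, stayed at or below 0.165 and 0.679 TPM in every animal. The mast cell gene CMA1 was at -1.09 and did not pass (adjusted P = 0.19). CPA3, another one, was at -1.06, and its call was lost without any NP animal, MT replicate 1 or MT replicate 3.

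**Figure D5:**
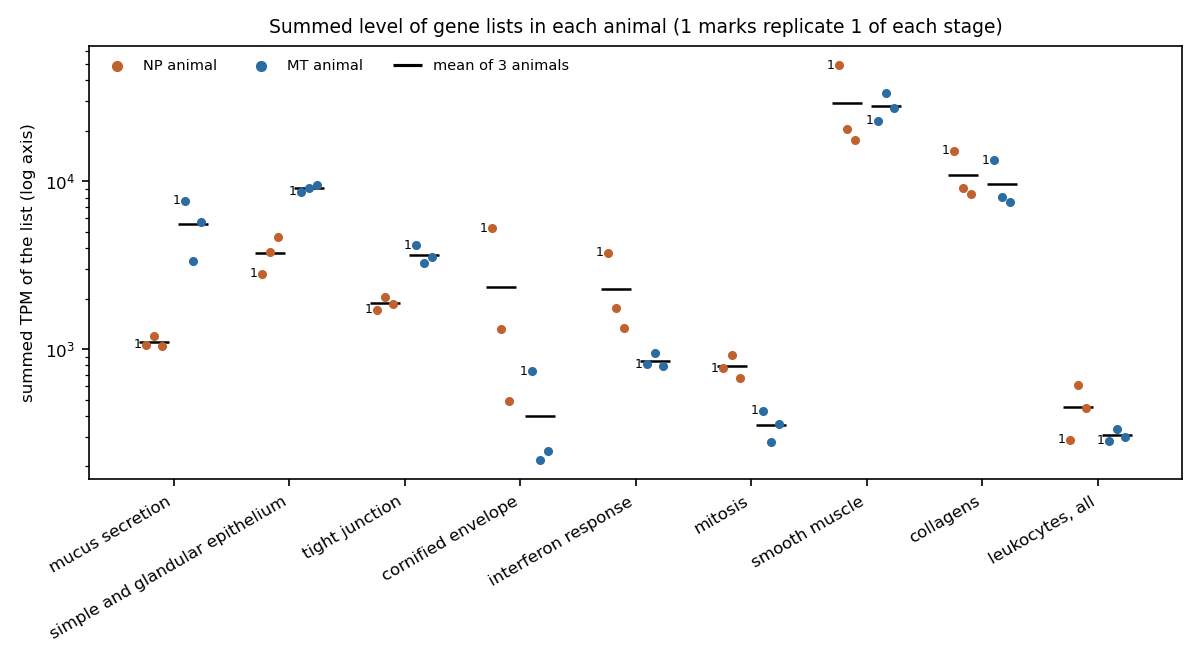
Summed TPM (log axis) of 9 gene lists in each NP animal (orange) and MT animal (blue), with a bar for the mean of 3 animals and a 1 beside replicate 1 of each stage. MT animals lie above all NP animals for mucus, glandular and tight junction genes and below them for interferon and mitosis genes, and NP replicate 1 is highest for the cornified envelope, interferon, smooth muscle and collagen genes.

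Of 32 tested receptors and targets of steroid hormones 7 were called higher and 1 lower (21.9% and 3.12%, against 10.1% and 7.98% of all genes). With 1 animal left out 6 or 7 were higher, and without NP replicate 1, 3 were lower. The progesterone receptor PGR went from 29.5, 27.8 and 23.5 TPM to 60.6, 55.7 and 51.8 TPM (log2 fold change 1.17, SE 0.18, adjusted P = 0.00299). The estrogen receptor ESR1 was at 121, 315 and 289 TPM in NP and at 136, 163 and 131 TPM in MT. Its log2 fold change of -0.59 did not pass with all animals (adjusted P = 0.14), and it was called lower at -0.88 (adjusted P = 0.00312) without NP replicate 1, the only NP animal below the MT range. GREB1, a target of the estrogen receptor, rose from 24.1, 19.2 and 17.4 TPM to 134, 95.5 and 94.2 TPM (log2 fold change 2.52, SE 0.22, adjusted P = 0.000335). FKBP5 and ZBTB16, which respond to progesterone and glucocorticoids, rose by 1.66 and 1.01, and PDZK1, known as responsive to estrogen, fell by 1.29 (adjusted P = 0.00782). MYB rose from 0.363, 1.93 and 1.58 TPM to 13.9, 16.9 and 15.0 TPM. C1ORF64, whose product binds steroid receptors, was at 0.793, 10.8 and 5.14 TPM in NP and at 356, 276 and 438 TPM in MT (log2 fold change 6.20, SE 0.72, adjusted P = 0.000889).

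In prostaglandin and steroid metabolism 7 of 37 tested genes were higher and 5 lower. PTGS2, the inducible cyclooxygenase that starts prostaglandin synthesis, rose from 4.09, 3.82 and 2.93 TPM to 8.98, 11.2 and 13.6 TPM (log2 fold change 1.75, SE 0.21, adjusted P = 0.00102). PTGES, which makes prostaglandin E2, had -1.29 and lost its call without MT replicate 2 or MT replicate 3, PTGR1, which inactivates prostaglandins, fell by 1.27 (SE 0.15, adjusted P = 0.000955), and the cytosolic phospholipase PLA2G4A fell by 0.82. The secreted phospholipase PLA2G10, which releases fatty acids from membranes, rose from 0.737, 0.629 and 0.672 TPM to 414, 80.3 and 108 TPM (log2 fold change 8.28, SE 0.95, adjusted P = 0.000889), and PTGES2, another prostaglandin E synthase, had 0.47 and lost its call without NP replicate 3 or MT replicate 3. HPGD, which degrades prostaglandins, had 1.17, with a call that was lost without NP replicate 2, NP replicate 3, MT replicate 1 or MT replicate 3. DHRS9, a dehydrogenase of retinol and steroids, fell from 122, 30.5 and 11.6 TPM to 1.47, 0.884 and 1.11 TPM (log2 fold change -5.53, SE 0.93, adjusted P = 0.00462), in the order of animals seen for squamous genes.

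Of 19 peptide hormone receptors and ligands 4 were higher and none lower. The oxytocin receptor OXTR (ENSCPOG00000020016) was low, at 1.74, 3.43 and 1.798 TPM in NP and 5.73, 7.01 and 7.16 TPM in MT (log2 fold change 1.66, SE 0.26, adjusted P = 0.00335). The relaxin receptor RXFP1 was at 77.4, 75.1 and 85.9 TPM in NP and 174, 150 and 125 TPM in MT, and its call at 1.03 was lost without NP replicate 2, NP replicate 3 or any MT animal.

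Among growth factors and their receptors 10 of 48 were higher and 1 lower. Called members of the EGF family were TGFA at 1.48, BTC at 2.49 and the receptor ERBB2 at 0.57, beside ERBB4 at 2.22 with a call that was lost without NP replicate 3, MT replicate 1 or MT replicate 3. FGFBP1, a carrier of fibroblast growth factors, rose from 0.773, 0.487 and 0.651 TPM to 123, 16.8 and 39.0 TPM (log2 fold change 6.61, SE 0.91, adjusted P = 0.00202), and FGF18 was the member that fell, by 3.49 (SE 0.49, adjusted P = 0.00212). EGFR and IGF1 were at 0.48 (adjusted P = 0.13) and -0.03 (adjusted P = 0.91).

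In the WNT pathway 2 of 40 were higher and 8 lower, among the latter the agonist RSPO1 and the antagonist WIF1. RSPO1 fell from 7.04, 8.94 and 15.4 TPM to 0.384, 1.37 and 0.447 TPM (log2 fold change -3.70, SE 0.63, adjusted P = 0.00501) and WIF1 by 3.04 (SE 0.52, adjusted P = 0.00511). AXIN2, a common readout of WNT signalling, was at -0.21 (adjusted P = 0.44). The number lower was 3 without MT replicate 3, 4 without NP replicate 2 or MT replicate 2, and 5 without MT replicate 1. In the TGF-beta and BMP pathway 4 of 49 were called in each direction, near the shares of all genes tested (10.1% higher and 7.98% lower). The BMP family member GDF10 and the pseudoreceptor BAMBI rose by 1.95 and 1.68, TGFB2 fell by 0.66 (SE 0.11, adjusted P = 0.00373), and NBL1, a secreted BMP antagonist, fell from 565, 681 and 793 TPM to 238, 322 and 307 TPM.

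Genes of cholesterol synthesis show how far NP replicate 1 could decide a list. They summed to 2521, 1070 and 784 TPM in NP and to 1330, 937 and 1236 TPM in MT. With all animals 1 of 23 was called higher, none lower, and the median log2 fold change was -0.27, whereas without NP replicate 1 the median was 0.49 and 8 were higher, and without NP replicate 3, 2 were lower. In glycolysis and hypoxia 1 of 27 was called in each direction, and none of 18 complement genes was called by edgeR. Of 38 genes that mark other tissues 14 passed the filter, and 1 of them, TF, was called higher at 0.60, which was lost without NP replicate 3 or MT replicate 3.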

How the data were processed

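Gene expression was measured by RNA-seq in the cervix of 3 NP, 3 MT and 4 LT guinea pigs. The authors sequenced poly(A) RNA from each animal as strand-specific single reads of 75 bp, processed the images with CASAVA 1.8.2, aligned with TopHat2 to cavPor3, and deposited read counts per Ensembl gene made with HTSeq-count 0.5.4p1. The authors also deposited TPM values, in which the counts are divided by transcript length and scaled to the same total in every animal, so that a large rise of some genes lowers the others.

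Counts were tested with the quasi-likelihood test of edgeR 4.0.16 (R 4.3.3, TMM factors, all 10 animals in 1 fit, contrast MT minus NP, two-sided, Benjamini-Hochberg adjustment). Genes that reached a stage mean of 3 TPM in any stage were tested, and an adjusted P under 0.05 was called. SE is the absolute log2 fold change divided by the square root of F. On simulated counts of 12645 genes, changes of 1.5-fold, 2-fold and 4-fold were planted in 67, 67 and 66 genes, and the others were left unchanged. The fit called 16.4%, 71.6% and 87.9% of the planted genes in the right direction, and 3.31% of its calls were unchanged genes. Genes with few reads were not planted, and far fewer genes changed than were called in the data, so these shares may not hold for the data. Depth was 18730665 to 27351763 reads per NP or MT animal, and a gene near 3 TPM had a median of 55 to 88 reads. Exact permutation of 3 against 3 animals cannot give a p below 0.1, so single TPM values were only compared for overlap. The replicates are separate animals.

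The 42 gene lists (1743 symbols, 1427 with a row in the table) and the genes named were chosen with earlier results of these data known. The genes named were taken from a set of the 10 genes with the largest rise and fall in log2 fold change (among those with at least 10 TPM in the higher stage) and in TPM, and from each list up to 4 members with the largest fold change, in these cases of called genes with no overlap between stages. The set also held the most abundant member of each list whatever its result, and not every gene chosen through a list is printed. Other genes were named after their values were seen. Of 25028 genes 20251 had a name. Alternatives were other scalings, filters, DESeq2 1.42.0, limma 3.58.1 on TPM scales, a transcript length trend, the 6 animals alone, a replicate block and each animal left out. limma on median-ratio scaled TPM was chosen after seeing the data. No sequences or coordinates are given. Some members of the lists are not reported here by name.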

Additional observations from a re-analysis of the deposited data

How the results depend on the processing

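The 2280 genes called (1271 higher, 1009 lower) stayed within 1.5 times under median-ratio factors, other filters, DESeq2 (3121), a length trend and limma on median-ratio scaled TPM. The total was 1139 in the fit of the 6 animals alone (744 higher, 395 lower), which has fewer residual degrees of freedom. With the replicate block the total was 741 (469 higher, 272 lower). Same-numbered NP and MT animals correlated in their deviations from the stage mean at 0.260, 0.148 and 0.0855. NP replicates 1 and 2 correlated best with the MT animal of the same number, and NP replicate 3 with MT replicate 2. With 3 animals per stage these values cannot decide whether the numbers mark a pairing or a shared batch. limma called 793 genes higher and 1549 lower on log2(TPM + 1), 761 higher on log2(TPM + 0.1), and 786 higher and 1617 lower on square-root TPM. With 1 animal left out the total ran from 1068 (without MT replicate 3) to 2576 (without NP replicate 1), genes higher from 715 to 1415 and genes lower from 353 to 1161. Genes turned on ran from 231 to 316 and turned off from 571 to 707. If every animal had to lie on its side of 3 TPM, 95 were turned on and 157 turned off. Lists with more members higher than lower numbered 20, and 13, 13 and 12 by limma on log2(TPM + 1), log2(TPM + 0.1) and square-root TPM. Lists with more members lower numbered 15, and 23 on log2(TPM + 1). With 1 animal left out they ran from 16 to 21 and from 10 to 20. Of 174 named genes in the fit 144 were called, 62 of them under every alternative run. FDFT1, not called at -0.27, reversed to 0.52 without NP replicate 1, and ran from -0.59 to 0.52 with 1 animal left out. The causes were not tested.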
